A study of Homo sapiens with 4 samples.

Results

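The genes described here are 10 genes of sphingosine-1-phosphate and ceramide metabolism and signalling, taken from the 57820 gene models of the RNA-seq tables by their symbols. The members are SPHK1, SPHK2, SGPL1, SGPP1, S1PR2, S1PR3, CERS2, CERS5, CERS6 and UGCG. They were chosen from earlier results of the same comparison, so their differences between the groups are given as a description and not as a test.

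The data came from G401, an established rhabdoid tumour cell line of the kidney that lacks SMARCB1, a subunit of the SWI/SNF chromatin remodelling complexes. Of the 4 libraries, 2 were labelled BRD9 KO and 2 were labelled LacZ, the control, and each group held replicates 1 and 2. BRD9 is a bromodomain subunit of a SWI/SNF subcomplex, and the comparison asked how gene expression differs when it is lost from rhabdoid cells. By the methods of the study, cells carried Cas9 and a guide RNA vector selected with puromycin and were grown in DMEM with 10% FBS, and no single clone is named for these libraries. Those methods call the 2 libraries of a group biological replicates, while the labels name no separate cultures, so that a p-value here covers no more than the spread from library to library, which may be technical.

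Sphingolipids are built from a sphingoid base. Ceramide synthases join a fatty acid to that base to make ceramide, ceramidases release sphingosine from ceramide, and sphingosine kinases phosphorylate sphingosine to sphingosine-1-phosphate (S1P), a lipid ligand of cell surface receptors. S1P is either dephosphorylated back to sphingosine or cleaved by a lyase, which is the exit of the pathway, and ceramide can instead be converted to sphingomyelin or to glucosylceramide. Ceramide is best known for its part in growth arrest and cell death, and S1P for its part in survival, migration and proliferation.

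SPHK1 and UGCG were the members with the largest fold changes, and the bases upstream of their start sites are shown for that reason. Each window holds the 250 bases before a RefSeq transcript start, 5′ to 3′ on the strand of the gene. The sequences are RefSeq's from the GRCh38.p14 table. Each was found at a single place on the gene's strand of its own chromosome in GRCh37, the build of the coordinates given here. Other chromosomes were not searched. Capitals mark matches on either strand to the letters of AP-1 (TGANTCA), CRE (TGACGTCA), ETS (CCGGAAG), E-box (CACGTG) or Sp1 (GGGCGG) motifs.
SPHK1 window 1 (chr17:74379035-74379284, + strand): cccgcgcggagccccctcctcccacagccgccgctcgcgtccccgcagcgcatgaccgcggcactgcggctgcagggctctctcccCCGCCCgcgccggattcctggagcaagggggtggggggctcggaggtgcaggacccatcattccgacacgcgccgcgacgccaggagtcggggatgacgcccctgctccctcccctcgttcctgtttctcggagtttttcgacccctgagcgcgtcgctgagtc
SPHK1 window 2 (chr17:74380440-74380689, + strand): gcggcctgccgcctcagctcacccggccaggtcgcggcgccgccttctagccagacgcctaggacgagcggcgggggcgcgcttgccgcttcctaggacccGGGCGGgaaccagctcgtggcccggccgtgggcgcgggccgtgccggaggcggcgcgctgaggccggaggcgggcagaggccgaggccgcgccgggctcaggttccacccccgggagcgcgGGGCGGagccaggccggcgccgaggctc
SPHK1 window 3 (chr17:74381109-74381358, + strand): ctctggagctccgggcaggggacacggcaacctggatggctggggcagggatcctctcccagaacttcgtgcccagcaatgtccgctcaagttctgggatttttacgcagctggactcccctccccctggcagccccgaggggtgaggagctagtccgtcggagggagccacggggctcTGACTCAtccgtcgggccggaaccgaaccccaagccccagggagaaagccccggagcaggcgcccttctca
UGCG window (chr9:114658844-114659093, + strand): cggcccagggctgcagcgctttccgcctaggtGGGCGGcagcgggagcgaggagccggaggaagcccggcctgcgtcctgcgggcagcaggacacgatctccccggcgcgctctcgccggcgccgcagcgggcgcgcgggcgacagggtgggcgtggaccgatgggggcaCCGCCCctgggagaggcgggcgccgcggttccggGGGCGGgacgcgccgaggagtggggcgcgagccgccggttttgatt

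The capitals in these windows marked the Sp1 letters in SPHK1 window 1, SPHK1 window 2 and the UGCG window, and the AP-1 letters in SPHK1 window 3 only, 71 bases before that start. Over the 35116 windows of the RefSeq table, the Sp1 letters were present in 42.6% and the AP-1 letters in 6.57%, against 8.52% for ETS, 6.34% for E-box and 1.65% for CRE. Windows were found for 8 of the 10 members, 12 windows in all, and 9 of these held the Sp1 letters, 2 the ETS letters, 1 the AP-1 letters, 1 the CRE letters and 0 the E-box letters. A match describes letters in these windows and is not a binding site.

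Library totals ran from 15053247 to 19559290 estimated counts. The BRD9 transcript was at 29.4 and 26.8 counts-per-million (CPM, scaled between libraries by TMM) in the BRD9 KO libraries and at 48.2 and 53.8 CPM in the LacZ libraries, which is -0.86 on the log2 scale (standard error, SE, 0.07; adjusted p 2.84e-09 by edgeR's quasi-likelihood test with Benjamini-Hochberg adjustment). BRD9 transcript was still present in the KO libraries. SMARCB1 had 0 counts in all 4 libraries, as had the leukocyte marker PTPRC and the red cell marker HBB. The epithelial marker EPCAM, the tubule marker LRP2 and the podocyte marker NPHS1 were each at 0.72 CPM or lower in every library. VIM, the mesenchymal intermediate filament gene, was at 1270 and 1280 CPM in BRD9 KO and at 1790 and 1800 CPM in LacZ, and its part in the results below was not tested.

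Of the 10 members, 9 passed the filter on low counts. At an adjusted p under 0.05 edgeR called 4 of the 9 higher in BRD9 KO (SPHK1, UGCG, CERS6 and SGPL1) and 0 lower. Of all 15288 genes tested, 5901 or 38.6% were called, with 20.5% higher and 18.1% lower, and nothing is read from the members' count since the same comparison chose them. The median log2 fold change (BRD9 KO minus LacZ) was 0.10 over the 9 members and -0.01 over all genes tested. For 7 of the 9 the CPM values of the groups did not overlap, which held for 68.6% of all genes tested. DESeq2, which called 23.9% of the genes to which it gave an adjusted p, called 3 members, all higher, and did not call SGPL1.

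**Figure D1:**
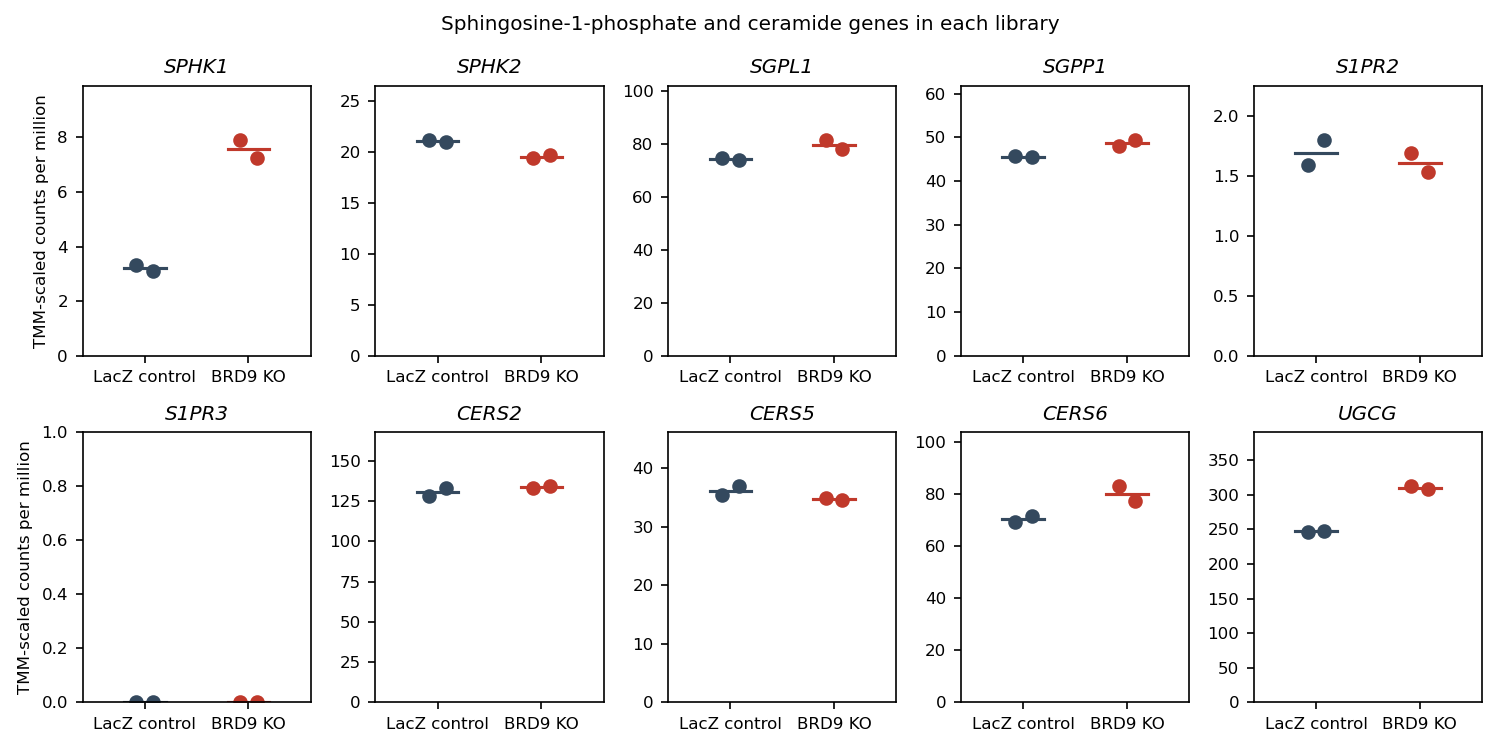
TMM-scaled counts-per-million (y axis, from 0, a separate scale in each panel) of the 10 members in the LacZ control and BRD9 KO libraries (x axis). Points are single libraries and lines are group means of 2. SPHK1 stands at 7.9 and 7.23 CPM in BRD9 KO against 3.32 and 3.12 CPM in LacZ control, UGCG at 312 and 309 against 246 and 248 CPM, and S1PR3 is at 0 throughout.

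SPHK1 was higher in BRD9 KO, and SPHK2, the other sphingosine kinase gene, was not called. SPHK1 (ENSG00000176170.9, chr17:74372665-74383941, + strand, GRCh37) encodes the cytosolic kinase that makes S1P, and it had 154 and 118 counts in the BRD9 KO libraries and 50 and 52 in the LacZ libraries. Scaled, these were 7.9 and 7.23 CPM in BRD9 KO and 3.32 and 3.12 CPM in LacZ. Both KO libraries stood above both controls, with no overlap, and the KO mean of 7.56 CPM ± 0.477 (SD, n = 2) compared with 3.22 ± 0.139. The log2 fold change was 1.23 (SE 0.16, 95% interval 0.89 to 1.58), a fold of 2.35, and 99.3% of the genes tested had a lower fold change. SPHK1 was called higher in all 13 alternative settings, with log2 values from 1.07 to 1.30. These settings refit all or part of the libraries that the member was chosen from, so they show dependence on processing only.

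SPHK2 (ENSG00000063176.11, chr19:49122548-49133974, + strand), which encodes the kinase found largely in the nucleus and at internal membranes, was at 19.4 and 19.7 CPM in BRD9 KO and at 21.2 and 21.0 CPM in LacZ. The KO libraries lay below the controls without overlap, and the log2 fold change of -0.11 (SE 0.08, 95% interval -0.27 to 0.05) was not called. On transcripts-per-million (TPM), which divides by transcript length within a library, SPHK2 was at 16.3 and 16.2 in BRD9 KO and at 19.0 and 18.8 in LacZ, a log2 ratio of the means of -0.22. The difference between the scales has a measured counterpart in the effective length, the length RSEM assigns to a gene after weighting its transcripts by abundance, which was 1975 and 2010 bases in BRD9 KO and 1841 and 1839 in LacZ.

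On the TPM scale SPHK1 made up 32.2% and 29.3% of the summed sphingosine kinase level in BRD9 KO and 13.9% and 12.7% in LacZ. The share was higher in both KO libraries, at 30.8% ± 2.05 (SD, n = 2) against 13.3% ± 0.86. The summed TPM of the kinases was 24.1 and 22.9 in BRD9 KO and 22.1 and 21.5 in LacZ. SPHK2 thus remained the more abundant kinase transcript in all 4 libraries, and the summed level differed far less than SPHK1 alone.

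S1P can be removed irreversibly by SGPL1 or reversibly by SGPP1, and both genes had slightly higher values in BRD9 KO. SGPL1 (ENSG00000166224.12, chr10:72575661-72655573, + strand), the S1P lyase of the endoplasmic reticulum, was at 81.4 and 77.9 CPM in BRD9 KO and at 74.7 and 73.8 CPM in LacZ. The groups did not overlap, and the log2 fold change was 0.10 (SE 0.04, 95% interval 0.02 to 0.19), a fold of 1.07. It was called by edgeR, but the call was lost under 6 of 13 alternatives, which were DESeq2, library totals in place of TMM, limma on TPM, and leaving out BRD9 KO replicate 1, LacZ replicate 1 or LacZ replicate 2. Over all 13 alternatives its log2 values ran from 0.07 to 0.13. SGPP1 (ENSG00000126821.7, chr14:64150934-64194783, - strand), an S1P phosphatase of the endoplasmic reticulum, was at 48.1 and 49.4 CPM in BRD9 KO and at 45.7 and 45.4 CPM in LacZ. Its log2 fold change of 0.10 (SE 0.05, 95% interval -0.01 to 0.20) was the same to 2 decimals as that of SGPL1 and was not called.

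The receptors among the members had the lowest counts. S1PR2 (ENSG00000267534.1, chr19:10332109-10342007, - strand), a receptor that couples to several classes of G protein, had 33 and 25 counts in BRD9 KO and 24 and 30 in LacZ. At 1.69 and 1.53 CPM against 1.59 and 1.8 CPM the groups overlapped. The 95% interval of the log2 fold change of -0.07 (SE 0.30) ran from -0.71 to 0.57, so that differences within that interval were not excluded. The 1 transcript model of S1PR2 in these data has an effective length of 1099 bases. The annotation of the coordinates gives the gene 3643 exon bases, so the counts may cover only part of it. S1PR3 (ENSG00000213694.3, chr9:91605778-91620070, + strand), another S1P receptor, had 0 counts in every library and was not tested. A count of 0 allows up to 3 counts, which is 0.153 to 0.199 CPM in these libraries, for counting error only.

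Among all S1P receptors, S1PR5 and S1PR2 carried nearly all of the summed TPM. S1PR2 made up 38.0% and 31.6% in BRD9 KO and 30.1% and 35.0% in LacZ, and S1PR5 made up 62.0% and 67.4% against 69.9% and 62.5%, so that the shares of the groups overlapped for both. S1PR1 and S1PR3 were at 0, and S1PR4 was at 2.47% or less. The summed receptor level was 6.73 and 7.31 TPM in BRD9 KO and 7.95 and 7.68 TPM in LacZ, which is low beside the kinases.

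The ceramide synthases differ in the fatty acids they join to the sphingoid base. CERS6 (ENSG00000172292.10, chr2:169312759-169631644, + strand), which prefers palmitoyl chains, was at 82.9 and 77.3 CPM in BRD9 KO and at 69.4 and 71.6 CPM in LacZ. The KO libraries were the higher ones without overlap, the log2 fold change was 0.19 (SE 0.04, 95% interval 0.10 to 0.28), a fold of 1.14, and the call was lost only with limma on TPM among 13 alternatives. Of the exon bases of CERS6, 43.8% lie opposite exons of CERS6-AS1, and the kit named in the methods does not mark strand. CERS6-AS1 was at 1.9 and 8.82 CPM in BRD9 KO and at 5.71 and 5.94 CPM in LacZ, a spread between the KO libraries that runs against that of CERS6. With the CPM of both genes added, the libraries stood at 84.8 and 86.2 in BRD9 KO and at 75.1 and 77.6 in LacZ, a log2 ratio of the means of 0.16.

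CERS2 (ENSG00000143418.15, chr1:150933059-150947479, - strand), the synthase of very long chain ceramides, was at 134 ± 1.32 CPM in BRD9 KO and at 131 ± 3.36 CPM in LacZ (SD, n = 2 each). The groups overlapped, and the log2 fold change was 0.03 (SE 0.03, 95% interval -0.04 to 0.09). CERS2 shares 20.4% of its exon bases with SETDB1 on the opposite strand, which was lower in BRD9 KO by edgeR (log2 fold change -0.25, adjusted p 0.00142), a call lost with limma on TPM and without LacZ replicate 2. CERS5 (ENSG00000139624.8, chr12:50523072-50561316, - strand), which like CERS6 prefers palmitoyl chains, was at 35.0 and 34.6 CPM in BRD9 KO and at 35.4 and 36.9 CPM in LacZ. Its log2 fold change of -0.06 (SE 0.06, 95% interval -0.18 to 0.07) was not called, and on log2(TPM + 1) with limma the value was 0.07. The effective length of CERS5 was 1284 and 1402 bases in BRD9 KO and 1493 and 1417 in LacZ, the lower values being in BRD9 KO.

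Across the ceramide synthases the order of the shares was the same in both groups. CERS2 made up 40.5% and 43.9% of the summed TPM in BRD9 KO and 41.1% and 42.2% in LacZ, followed by CERS4, which is no member, with 34.3% and 33.2% against 37.2% and 35.3%. CERS5 made up 13.7% and 12.4% in BRD9 KO and 12.5% and 13.6% in LacZ. CERS6 made up 6.09% and 5.67% in BRD9 KO and 5.34% and 5.49% in LacZ, and CERS1 5.36% and 4.92% against 3.88% and 3.39%. The summed TPM was 330 and 331 in BRD9 KO and 313 and 315 in LacZ.

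**Figure D2:**
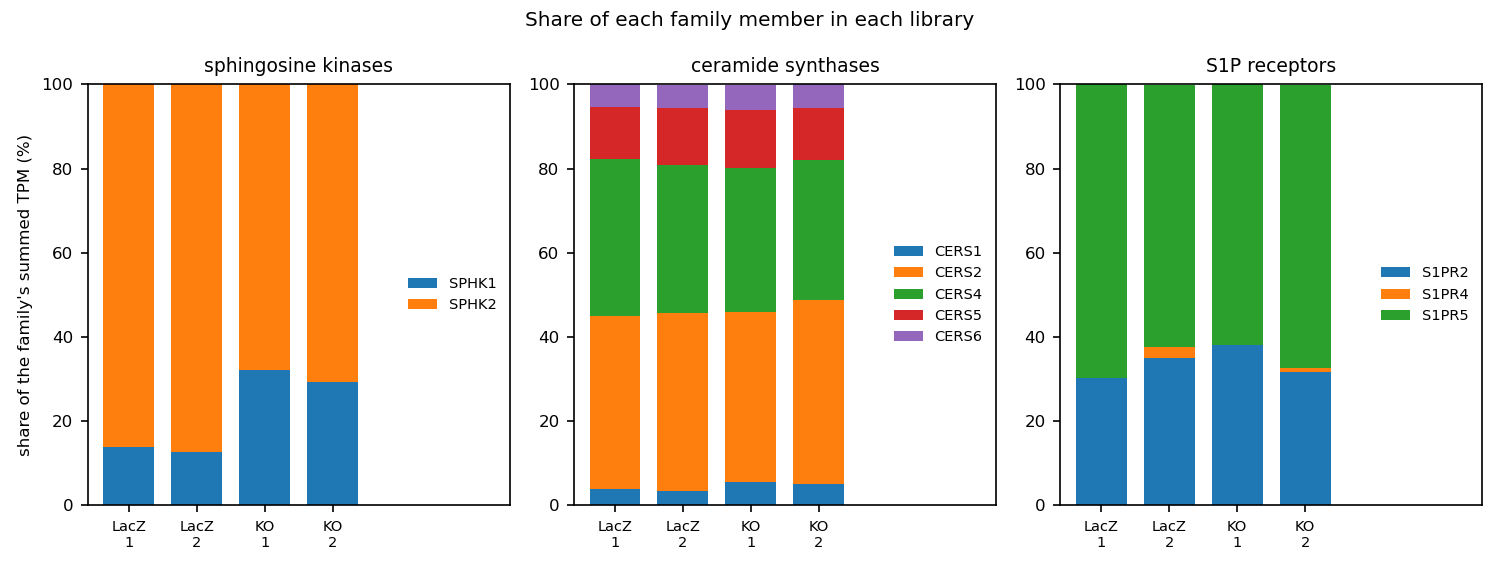
Share of the summed TPM of a family (y axis, percent) for the sphingosine kinases, ceramide synthases and S1P receptors in each of the 4 libraries (x axis, LacZ replicates 1 and 2, then BRD9 KO replicates 1 and 2). The SPHK1 part is 13.9% and 12.7% in LacZ and 32.2% and 29.3% in BRD9 KO, while CERS2 and CERS4 hold most of the synthase level in all libraries; genes at 0 are not drawn.

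UGCG (ENSG00000148154.5, chr9:114659094-114697649, + strand) encodes the enzyme that commits ceramide to glucosylceramide, the first step towards gangliosides and globosides. It was at 312 and 309 CPM in BRD9 KO and at 246 and 248 CPM in LacZ. Both KO libraries stood above both controls, at 310 ± 2.53 against 247 ± 1.33 CPM (SD, n = 2 each). The log2 fold change was 0.33 (SE 0.02, 95% interval 0.29 to 0.38), a fold of 1.26, and 89.0% of the genes tested had a lower one. UGCG was called higher in all 13 alternatives, which likewise refit the same libraries, with log2 values from 0.31 to 0.35. Its TPM was 134 and 133 in BRD9 KO and 108 and 107 in LacZ.

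**Figure D3:**
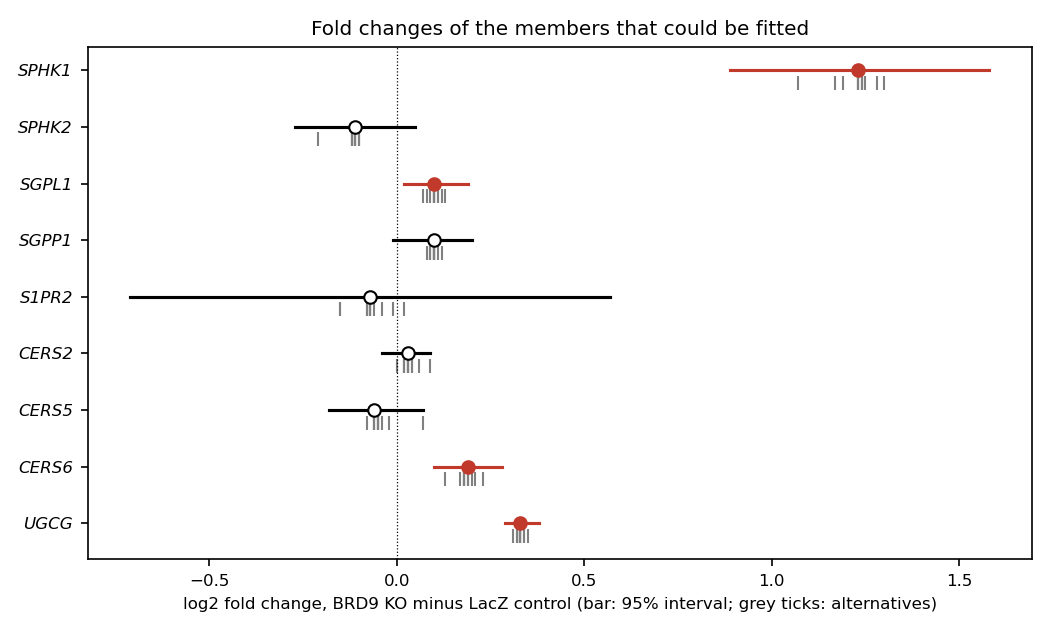
Log2 fold changes (x axis, BRD9 KO minus LacZ control) of the 9 members that could be fitted. Circles are edgeR values, filled red where called higher and open where not called, with 95% intervals as bars, and grey ticks are the values under the 13 alternatives. SPHK1 lies at 1.23 and UGCG at 0.33, and the widest interval is that of S1PR2, from -0.71 to 0.57.

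In level, the members spanned from 0 to more than 100 TPM. In LacZ the order by mean TPM was CERS2 (131), UGCG (108), CERS5 (41.0), SGPP1 (23.2), SGPL1 (22.6), SPHK2 (18.9), CERS6 (17.0), SPHK1 (2.91), S1PR2 (2.54) and S1PR3 (0). Of these neighbours, only SGPP1 and SGPL1 had libraries whose ranges overlapped, but SPHK1 and S1PR2 came as near as 2.74 and 2.69 TPM. Library values alone are compared here. RSEM's own bounds on the TPM overlapped for SPHK1 and S1PR2 in each LacZ library, and for CERS6 and SPHK2 in all 4 libraries. In BRD9 KO, CERS2 (139) and UGCG (134) overlapped, as did SGPP1 (25.0) and SGPL1 (24.0), and CERS6 (19.4) stood above SPHK2 (16.3). SPHK1 (7.24) and S1PR2 (2.44) were further apart there than in LacZ.

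Of the 9 members tested, SPHK2, UGCG and CERS5 had effective lengths that did not overlap between the groups. This held for 31.0% of all genes tested, so nothing particular to the members is read from it. For CERS5 the nearest libraries stood at 1402 bases in BRD9 KO and 1417 in LacZ. SPHK2 was longer in BRD9 KO by 8.31% of the LacZ mean and UGCG by 2.21%, with 3856 and 3855 bases against 3749 and 3795, and the CERS5 mean changed by -7.66%. SPHK1 overlapped, at 1688 and 1782 bases in BRD9 KO and 1776 and 1871 in LacZ, and for CERS2 1 library, BRD9 KO replicate 2 at 1537 bases, stood below the others at 1647 to 1649. SGPP1 and S1PR2 have 1 transcript model each in these data, and S1PR3 had 0 counts. Their effective length could therefore not differ between libraries, and nothing is read from its being the same.

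**Figure D4:**
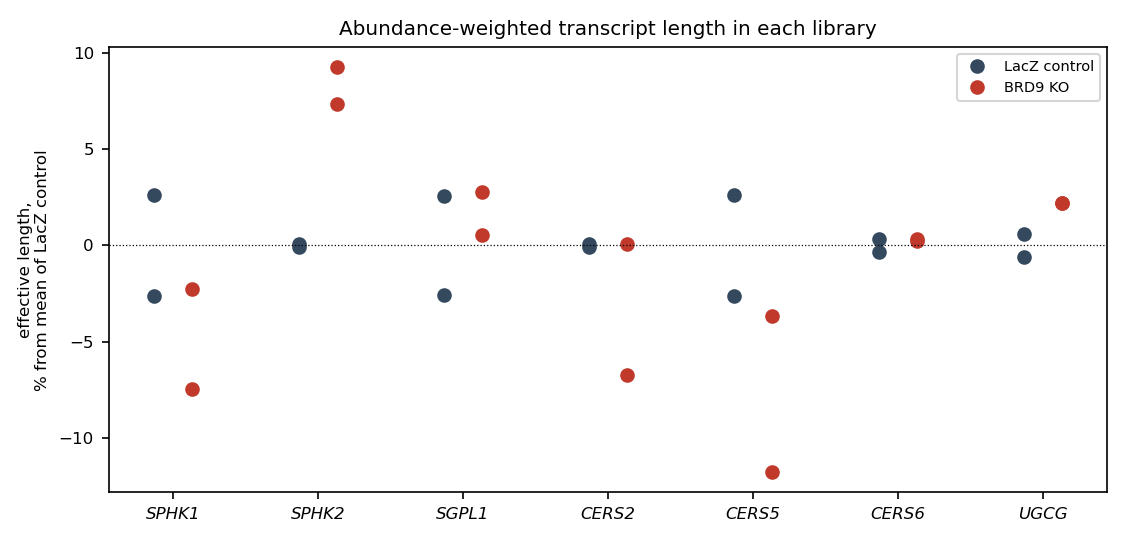
Effective length of 7 members in each library (y axis, percent difference from the mean of the 2 LacZ control libraries), with dark points for LacZ control and red points for BRD9 KO. SPHK2 lies above its controls in both KO libraries and CERS5 below them, while the points of SPHK1, SGPL1 and CERS6 overlap.

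The other genes of the pathway were listed by enzymatic step. Earlier results of these data were known when the lists were chosen. Counts and adjusted p-values of the lists are therefore given as a description and not as a test. Over all 7 lists, 63 of 79 genes were tested, of which 19 rose, 9 fell and 35 were not called, or 44.4% called against 38.6% of all genes tested. Their median log2 fold change was 0.04. By list, the share called ran from 22.2% to 66.7%. The background for each count below is the share over all genes tested, 38.6% called, with 20.5% higher and 18.1% lower.

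In sphingoid base and ceramide synthesis, 3 of 10 tested genes rose, 1 fell and 6 were not called, with a median of 0.08. DEGS1, the desaturase that completes ceramide, fell from 110 and 107 CPM in LacZ to 84.8 and 83.8 CPM in BRD9 KO (edgeR log2 fold change -0.36, adjusted p 7.75e-08). ORMDL3, a regulator of serine palmitoyltransferase, rose from 42.3 and 38.2 to 50.1 and 54.8 CPM (log2 0.38, edgeR adjusted p 4.12e-05, lost with limma on TPM). CERS1, a synthase that prefers stearoyl chains, rose from 11.5 and 11.0 to 17.2 and 16.8 CPM (log2 0.60, edgeR adjusted p 4.24e-05), but 68.5% of its exon bases are shared with GDF1, among which RSEM divides reads. With the CPM of GDF1 added, the sum was 26.2 and 26.4 in BRD9 KO and 20.9 and 21.1 in LacZ, a log2 ratio of 0.32. SPTLC2, a subunit of serine palmitoyltransferase, rose by 0.11 in log2 terms (edgeR adjusted p 0.00894), a call that was lost with DESeq2 and without BRD9 KO replicate 1 or LacZ replicate 1.

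Sphingosine, the substrate of the kinases, is released by ceramidases. In the list of ceramidases and sphingomyelinases 2 of 9 tested genes rose, 0 fell and 7 were not called, with a median of 0.04. ASAH1, the lysosomal acid ceramidase, rose from 49.3 and 52.0 CPM in LacZ to 68.0 and 71.5 CPM in BRD9 KO (log2 0.46, edgeR adjusted p 1.27e-07). ACER2, an alkaline ceramidase of the Golgi, was at 7.44 and 5.69 CPM in BRD9 KO and at 4.05 and 3.9 CPM in LacZ (log2 0.73, edgeR adjusted p 0.00227), and its call was lost with DESeq2, with limma on TPM and without BRD9 KO replicate 1. The sphingomyelinases SMPD1, SMPD2, SMPD3 and SMPD4 had log2 values from -0.02 to 0.07 and were not called.

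Of the genes that use or carry ceramide, 2 of 7 tested rose, 1 fell and 4 were not called, all with log2 values between -0.13 and 0.14. CERK, the kinase that makes ceramide-1-phosphate, rose by 0.14 (edgeR adjusted p 0.000747, lost with limma on TPM). COL4A3BP, the ceramide transfer protein CERT, rose by 0.10 (edgeR adjusted p 0.0366) and PLEKHA8, a glucosylceramide transfer protein, had a log2 change of -0.13 (edgeR adjusted p 0.0178), and each of these calls was lost under 4 or 5 of 13 alternatives.

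Downstream of UGCG, 1 of 5 tested genes of glycosphingolipid synthesis rose and 1 fell. ST3GAL5, the sialyltransferase that makes the ganglioside GM3, fell from 79.5 and 81.2 CPM in LacZ to 60.9 and 63.4 CPM in BRD9 KO (log2 -0.37, edgeR adjusted p 2.9e-07). B4GALNT1, which extends gangliosides, rose from 56.1 and 59.2 to 69.6 and 67.5 CPM (log2 0.25, edgeR adjusted p 0.000109, lost with limma on TPM). Of its exon bases, 27.1% lie opposite exons of SLC26A10, whose part in this value was not tested.

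In the list of glycosphingolipid breakdown, which is mostly lysosomal, 7 of 12 tested genes rose, 1 fell and 4 were not called. That is 66.7% called, against 38.6% of all genes tested, with a median of 0.17 against -0.01. The list was chosen with earlier results known, so this difference is a description only. The list also holds GBA2 and NEU3, which act outside the lysosome and were not called (log2 0.03 and -0.04). PSAP, the precursor of the saposins that present lipids to the hydrolases, rose from 1060 and 1060 CPM in LacZ to 1490 and 1460 CPM in BRD9 KO (log2 0.47, edgeR adjusted p 2.22e-17). The sialidase gene NEU1 rose by 0.37 (edgeR adjusted p 1.24e-09). HEXA, which encodes a lysosomal glycosidase of ganglioside breakdown, rose by 0.37 (edgeR adjusted p 2.21e-08). Of its exon bases, 13.2% lie opposite exons of RP11-106M3.3, whose part in this value was not tested. Further genes that rose, named after their values were seen, were GM2A, GLB1 and GLA, with log2 values of 0.34, 0.19 and 0.24, and the gene that fell was ARSA, a sulfatase, at -0.32. The calls of GLB1 and GLA were lost with limma on TPM, and that of ARSA with limma on TPM and without BRD9 KO replicate 1 or LacZ replicate 1.

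Among the other genes that dephosphorylate, break down or export S1P, 1 of 6 tested rose, 2 fell and 3 were not called. ALDH3A2, the dehydrogenase that acts on the aldehyde released by the lyase, fell from 90.7 and 93.5 CPM in LacZ to 76.0 and 83.6 CPM in BRD9 KO (log2 -0.21, edgeR adjusted p 0.000602, lost with limma on TPM). SPNS2, an S1P exporter, was at 12.6 and 11.0 CPM in BRD9 KO and at 14.8 and 16.0 CPM in LacZ (log2 -0.38, edgeR adjusted p 0.00595), and the call was lost under 4 of 13 alternatives. SGPP2, the paralog of SGPP1, was at 1.38 and 1.96 CPM in BRD9 KO and at 0.796 and 0.6 CPM in LacZ (log2 1.25, edgeR adjusted p 0.0145), and its call was lost under 5 of the 12 alternatives that gave it a value.

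Of the other receptors and the G proteins and signalling genes that act after them, 3 of 14 tested rose, 3 fell and 8 were not called, with a median of -0.04. The log2 fold change of GNAI3 was -0.18 (edgeR adjusted p 1.05e-05) and that of RHOA was -0.08 (edgeR adjusted p 0.000156). GNA12 and GNA13, whose products link S1PR2 to RhoA, rose by 0.24 and 0.13 (edgeR adjusted p 0.000254 and 0.000959). The calls of RHOA, GNA12 and GNA13 were lost with limma on TPM. The other calls, named after their values were seen, were GNA11 at 0.17, lost with DESeq2, with limma on TPM and without LacZ replicate 2, and ROCK2 at -0.17, lost with limma on TPM.

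**Figure D5:**
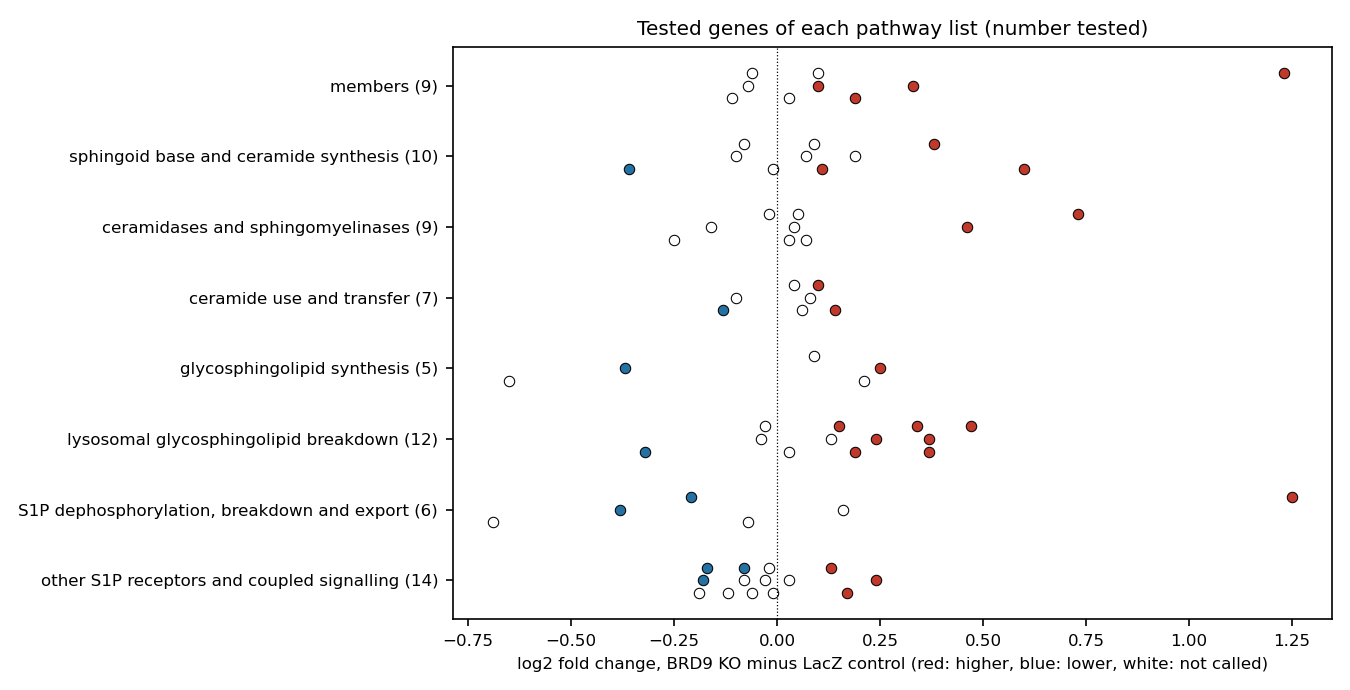
Log2 fold changes (x axis, BRD9 KO minus LacZ control) of the tested members and of the tested genes of the 7 pathway lists, 1 circle a gene, red where called higher, blue where called lower and white where not called (edgeR, adjusted p under 0.05). The vertical offset within a list carries no meaning. In the list labelled lysosomal glycosphingolipid breakdown, which also holds GBA2 and NEU3, 7 of 12 genes are red. Over all genes tested, 20.5% were called higher. The member farthest to the right is SPHK1 at 1.23.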

How the data were processed

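All 4 RNA-seq libraries were used. STAR (alignment to hg19), RSEM (quantification) and DESeq2 are the tools the submitters' notes name (versions: not given in the sources used here). Per the labels, extraction used Direct-zol, whereas the methods describe Trizol with column cleanup. The authors made each deposited expected count (an estimated count) with RSEM; these counts divide reads shared between genes by a model and are not scaled between libraries. The authors' TPM is scaled to transcript length within a library. The deposited bounds of the TPM credibility interval (a signal on the TPM scale) and the deposited posterior standard deviation of the count (a score of the uncertainty from shared reads) served as checks only, and RSEM's posterior means as an alternative. In all 4 libraries the TPM of UGCG, SGPP1 and CERS6 lay above the upper bound. For UGCG in BRD9 KO replicate 1 it was 134 against a bound of 130. The TPM of CERS5 in LacZ control replicate 1 lay below the lower bound, at 39.1 against 39.3. TPM levels and shares thus depend on which RSEM estimate is used.

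Expected counts were rounded. The test was edgeR 4.0.16 (R 4.3.3), quasi-likelihood, TMM, filterByExpr, robust, no covariate, two-sided, Benjamini-Hochberg over 15288 genes, called at an adjusted p under 0.05. Alternatives used DESeq2 1.42.0, limma 3.58.1 on log2(TPM + 1), library totals, other filters, a stricter threshold of 0.01, and each library left out. The scripts were tested on simulated counts. Replicates differed by more than sampling noise (chi-square per degree of freedom 1.59 in BRD9 KO, 1.62 in LacZ).

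The members and the pathway lists were chosen with earlier results of these data known. The text names BRD9, the 10 members and up to 4 genes of each list with the smallest p among those called. Of the genes whose exons overlap a member, the results name SETDB1 and CERS6-AS1. The others were DBP (SPHK2), RP11-316M1.12 (CERS2), DNMT1 (S1PR2) and PRPSAP1 (SPHK1), which edgeR did not call. Some genes of the lists are counted but not reported here by name. Positions are from GENCODE v44 on GRCh37. A motif match counts the letters on both strands. The marker PECAM1 was not analysed here.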

Additional observations from a re-analysis of the deposited data

How the results depend on the processing

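BRD9 stayed lower in all 13 alternatives (-0.93 to -0.77 on the log2 scale), and 2 members changed sign: S1PR2 reached 0.02 without LacZ control replicate 2 (-0.15 to 0.02 with 1 library left out), and CERS5 0.07 with limma on log2(TPM + 1). The cause was not tested for S1PR2 or for CERS5. The effective length of CERS5 was 1284 and 1402 bases in BRD9 KO and 1493 and 1417 in LacZ. The count of 5901 called genes became 3303 with DESeq2 and 2444 with limma on TPM, and 4173 to 4968 with 1 library left out. Members called went from 4 to 2 with limma and ranged from 3 to 4 with 1 library left out. With DESeq2 and limma in turn, called genes were 1 and 1 of ceramidases and sphingomyelinases (from 2), 1 and 0 of ceramide use and transfer (from 3, and 1 at an adjusted p under 0.01), and 1 and 0 of S1P dephosphorylation, breakdown and export (from 3). With limma they were 1 of glycosphingolipid synthesis (from 2), 5 of the glycosphingolipid breakdown list (from 8) and 1 of receptors and signalling (from 6). With 1 library left out, ceramide use ran from 1 (BRD9 KO replicate 1 or LacZ control replicate 2 left out) to 3, and the S1P dephosphorylation list from 1 (BRD9 KO replicate 2 or LacZ control replicate 2 left out) to 4. With RSEM's posterior mean TPM the LacZ shares were 17.4% for SPHK1, 82.6% for SPHK2, 39.8% for CERS2, 15.3% for CERS5 and 5.14% for CERS6, and the BRD9 KO share of CERS5 was 14.6%. The labels share replicate numbers, but deviations of same-numbered libraries correlated at -0.2 over 11225 genes, so the numbers were not taken as pairs; a replicate block gave 6109 called genes and, crossed, chosen after seeing the data, 5979, with 4 members called and BRD9 at -0.86 in both. Summing overlapping genes was also chosen after seeing the data. Low counts limit S1PR2 and S1PR3 most, and 2 libraries a group allow no exact permutation test to pass 0.05.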
